A study of Drosophila mojavensis with 97 samples.

Results

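Of the 14528 transcripts on the arrays, 32 (0.22%) had higher values in flies from Punta Onah, Sonora (PO) than in flies from Organ Pipe National Monument, Arizona (OPNM), and differed little between regions and temperatures. They were chosen from 24 group means, 1 for every population on each cactus at each temperature. A transcript was taken when the mean of the 6 PO groups exceeded that of the 6 OPNM groups by at least 0.5 on the log2 scale, with PO higher in 6 of 6 pairs of groups that shared a cactus and a temperature, as in 2.87% of all transcripts. The difference between Baja California and the mainland had to stay below a ratio of 1.5 in either direction, and the steps from 15 to 25°C and from 25 to 35°C, over all populations and cacti, below 0.2 on the log2 scale. The PO minus OPNM differences of these 32 transcripts, their differences between regions, and their temperature steps are therefore given as descriptions, without tests. The sign-turned rule chose 9 transcripts (0.0619%) with higher values in OPNM flies.

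The arrays measured RNA of wild-type adult *Drosophila mojavensis* females, 7 days old, with about 30 females in each extract. The flies came from the laboratory stocks PO07 and OPNM08 of the mainland and from PP08 (Punta Prieta, PP) and SQ08 (San Quintin, SQ) of Baja California. OPNM08 was built by pooling isofemale lines. Each stock was raised from egg to adult on fermenting agria or organ pipe cactus, kept on banana food after eclosion, and then held for 12 hr at a temperature of 15, 25, or 35°C. There were 97 arrays, 4 in each of 23 groups and 5 in PP flies reared on agria at 35°C, so that PO and OPNM had 24 arrays each. Of the OPNM arrays for organ pipe cactus and 35°C, 2 carried the label of replicate 3. Each population was 1 laboratory stock, and nothing in the labels said that replicates were separate rearings, so the errors and p-values measure the spread between these arrays.

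*Drosophila mojavensis* breeds in rotting columnar cacti of the Sonoran Desert, where larvae feed on the microbes of the rot and adults meet wide swings in temperature. Populations on either side of the Gulf of California use different main hosts. These are agria over most of Baja California and organ pipe or cina cactus on the mainland. The study also reports agria in coastal Sonora, including Punta Onah, and some founders of PO07 came from agria rots. The array values were log2 intensities summarized over several probes per transcript, so that a sequence difference at the probes and a difference in RNA level cannot be told apart. In extracts of many females, likewise, fewer cells of a type and less RNA per cell cannot be told apart. Array medians ran from 9.81 to 10.10 and interquartile ranges from 2.51 to 3.42 over the 97 arrays, and the arrays correlated with each other at r = 0.80 to 0.996 across transcripts. PO arrays had medians of 9.81 to 10.07 and OPNM arrays of 9.87 to 10.08. After centring of the arrays on their medians the rule chose 37 transcripts, all 32 among them.

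Little is known of what most of the 32 transcripts encode. The sources used here paired 19 of them with a gene identifier, 3 with an ortholog symbol, and 3 with at least 1 annotation term, and only 5 had any name or function. FBtr0163405 (GI12680) is the ortholog of *nimB5*, a secreted protein of the Nimrod family that in *D. melanogaster* is made in the fat body and acts on hemocytes, the blood cells of insects. FBtr0172481 (GI21756) is the ortholog of *nAcRbeta-21C*, a subunit of the nicotinic acetylcholine receptor, the ion channel behind fast cholinergic transmission in the insect nervous system. FBtr0167983 and FBtr0167985 carried the term chitinase activity. Chitinases cut chitin, the polymer of the cuticle, of the lining of the gut, and of fungal cell walls. FBtr0165024 (GI14299) was paired with *CG15370*. The transcripts spanned the range of signal, with mean values of 4.75 to 12.72 and 16 of 32 above the median transcript.

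Over the 32 transcripts the PO minus OPNM difference had a median of 0.64 on the log2 scale (0.51 to 1.65), a ratio of 1.56, against −0.03 over all transcripts. The standard errors of the differences had a median of 0.10. In limma's fit of all arrays, PO exceeded OPNM at an adjusted p under 0.01 in 31 of the 32 and in 378 of all transcripts (2.6%), a count that the choice of the transcripts fixed. Every PO array lay above every OPNM array in 1 of the 32 and in 3 of all transcripts (0.0206%). The other 31 had overlapping populations. On agria alone the 12 PO arrays lay above the 12 OPNM arrays in 1 of the 32, against 0.0275% of all transcripts, and on organ pipe cactus in 13, against 0.22%. The choice favoured such separation, so these counts are descriptions too.

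**Figure D1:**
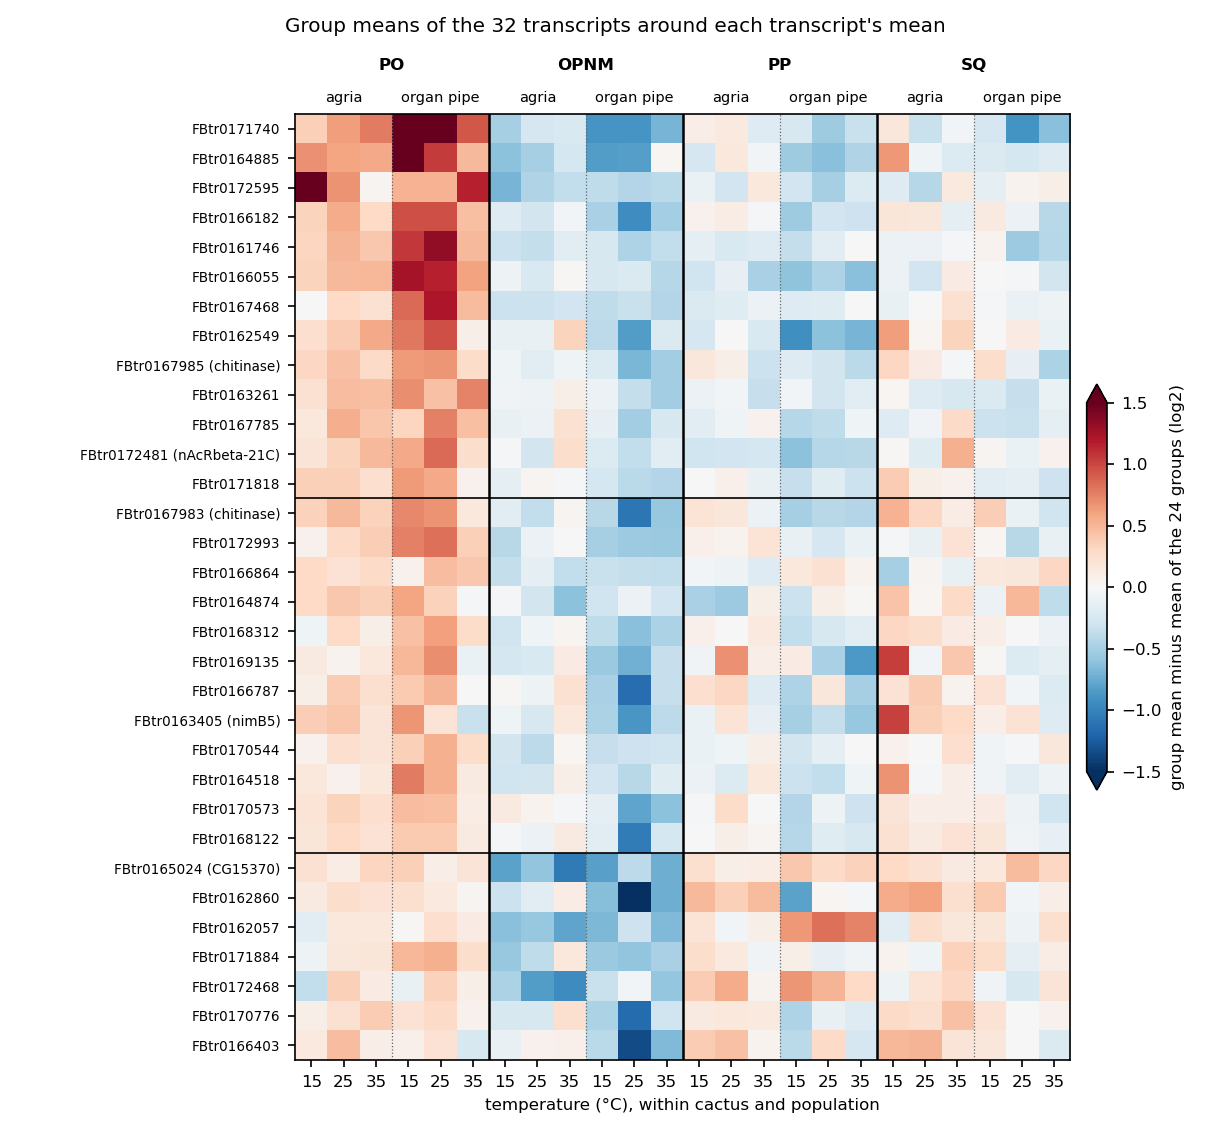
Group means of the 32 transcripts (rows) in the 24 groups (columns: population, cactus, and temperature in °C), as the difference from the mean of the 24 groups on the log2 scale. Rows above the upper line have Baja California near OPNM, rows below the lower line have it near PO, and most of the darkest red cells are PO flies on organ pipe cactus at 15 and 25°C, most of the darkest blue OPNM flies on organ pipe cactus at 25°C.

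The transcript with the largest difference, FBtr0171740, has no annotation. Its values had a median of 10.53 (8.62 to 12.28) in PO flies and of 8.75 (8.17 to 9.85) in OPNM flies, a difference of 1.65 ± 0.18 (SE), or 3.13-fold. The populations overlapped on agria, but all 12 PO arrays on organ pipe cactus were above all 12 OPNM arrays on that cactus. In PO flies on organ pipe cactus at 25°C the arrays read 10.95, 9.62, 11.49, and 12.28, against 8.54, 8.65, 8.44, and 8.42 in OPNM flies. The difference was 0.91 ± 0.25 on agria and 2.38 ± 0.25 on organ pipe cactus. Over all cacti and temperatures the values of PO flies spread more widely than those of OPNM flies, with SDs of 0.96 and 0.46 (n = 24 each). These SDs include the differences between cacti and temperatures.

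FBtr0164885 (FBgn0136913) followed, with a median of 9.38 (7.72 to 10.36) in PO flies and of 7.88 (7.17 to 8.69) in OPNM flies. Its difference of 1.35 ± 0.14 was 1.08 ± 0.20 on agria and 1.62 ± 0.20 on organ pipe cactus. On organ pipe cactus it declined over the temperatures, with 2.52 at 15°C, 1.87 at 25°C, and 0.47 at 35°C. At 35°C the PO arrays read 8.84, 8.82, 9.07, and 8.80 and the OPNM arrays 8.23, 8.15, 8.69, and 8.59, close together but without overlap.

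FBtr0172595 stood at the floor of the arrays, at the 0.2 percentile of mean value. Its median was 5.18 in PO flies and 4.28 in OPNM flies, with highest values of 11.22 and 5.10. The 11.22 belonged to 1 of the 4 PO arrays on agria at 15°C, which read 11.22, 4.31, 5.5, and 4.03, against 4.10, 4.42, 3.74, and 3.94 in OPNM flies. Without that array its difference was 0.92 in place of 1.196, and the difference on agria at 15°C was 0.57 in place of 2.22.

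FBtr0166182 (FBgn0138206) and FBtr0161746 (FBgn0133784) both differed by just over 1 on the log2 scale (SE 0.09 and 0.10), a ratio of 2.01 in the first. FBtr0166182 was an abundant transcript, with a median of 12.15 (11.24 to 12.85) in PO flies and of 11.26 (10.04 to 11.71) in OPNM flies, and all PO arrays on organ pipe cactus exceeded all OPNM arrays on it. FBtr0161746 had a median of 10.00 (8.84 to 11.47) in PO flies and of 9.03 (8.59 to 9.42) in OPNM flies. Of similar size were FBtr0165024 and the chitinase FBtr0167983 and 3 transcripts without annotation terms. FBtr0166055, FBtr0167468 (FBgn0139491), and FBtr0172993, differed by 0.92 ± 0.11, 0.86 ± 0.08, and 0.80 ± 0.10. Beyond these 10, the differences ran from 0.51 to 0.74.

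The ortholog of *CG15370*, FBtr0165024, was the 1 transcript in which the 24 PO arrays and the 24 OPNM arrays did not overlap. Its median was 10.43 (10.01 to 10.77) in PO flies and 9.45 (8.99 to 9.89) in OPNM flies, a difference of 0.95 ± 0.07. The difference was 1.04 ± 0.10 on agria and 0.86 ± 0.10 on organ pipe cactus. PP flies, with a median of 10.50 (10.03 to 10.82), and SQ flies, with 10.56 (9.56 to 10.94), were at the level of PO, so that OPNM alone was low.

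The 2 chitinase transcripts were abundant. FBtr0167983 (FBgn0140002) had a median of 12.10 (11.29 to 12.53) in PO flies and of 11.06 (10.04 to 11.70) in OPNM flies, and FBtr0167985 (FBgn0140004) of 12.24 (11.67 to 12.77) and 11.56 (10.66 to 12.00). Their differences were 0.88 ± 0.09 and 0.72 ± 0.08. On organ pipe cactus at 25°C, FBtr0167983 read 12.09, 11.91, 12.40, and 12.53 in PO flies, against 10.17, 10.04, 11.03, and 10.63 in OPNM flies, a difference of 1.77, and FBtr0167985 differed there by 1.35. Both sets of arrays were fully apart at this combination.

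Other transcripts with the term chitinase activity were looked up after these values were known. FBtr0167984, whose number falls between the other two, had a PO mean of 12.19 and an OPNM mean of 11.49 with PO higher in 6 of 6 combinations, and was left out by its step of −0.35 from 15 to 25°C. The 4 others differed less, with 0.23 in FBtr0173888 (*Cht5*), 0.06 in FBtr0170845, −0.08 in FBtr0169700, and −0.14 in FBtr0169615 (*Cht9*). How alike the sequences of FBtr0167983, FBtr0167984, and FBtr0167985 are was not examined, so that shared signal at their probes and separate changes cannot be told apart.

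The *nimB5* ortholog FBtr0163405 was a low transcript, with a median of 7.57 (6.48 to 8.44) in PO flies and of 6.96 (5.96 to 7.75) in OPNM flies, a difference of 0.56 ± 0.13. It was 1.14 and 1.08 on organ pipe cactus at 15 and 25°C but 0.06 at 35°C, and 0.03 on agria at 35°C. The 4 PO arrays were fully above the 4 OPNM arrays in 2 of 6 combinations. The other Nimrod ortholog found, *nimC3* (FBtr0168116), differed by 0.24 ± 0.08 and had PO higher in 4 of 6 combinations.

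The *nAcRbeta-21C* ortholog FBtr0172481 had a median of 10.68 (9.71 to 11.42) in PO flies and of 10.04 (9.47 to 10.97) in OPNM flies, a difference of 0.58 ± 0.11. Its arrays on organ pipe cactus at 25°C read 11.05, 10.56, 11.22, and 11.20 in PO flies and 9.52, 9.67, 10.35, and 9.62 in OPNM flies. The other receptor subunits with an ortholog symbol had small differences of the opposite sign, −0.22 ± 0.08 in *nAcRbeta-64B*, −0.23 ± 0.11 in *nAcRalpha-30D*, and −0.02 ± 0.07 in *nAcRbeta-96A*.

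**Figure D2:**
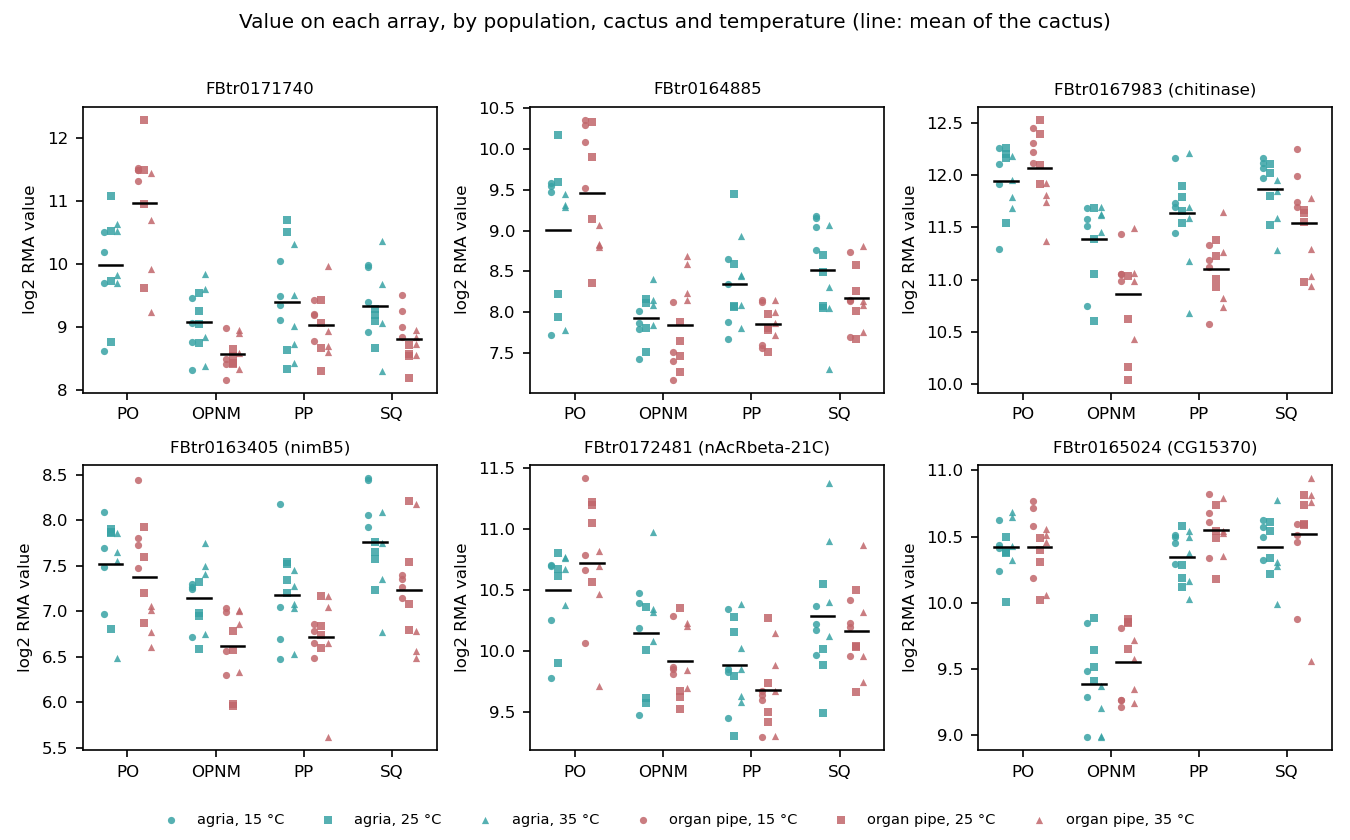
Log2 RMA value of 6 of the transcripts on each of the 97 arrays, by population, with agria in teal and organ pipe cactus in red, temperatures as symbols, and the mean of each cactus as a line. In FBtr0171740 all PO arrays on organ pipe cactus are above all OPNM arrays on it, and in FBtr0165024 OPNM is below PO on every array while PP and SQ lie at the level of PO.

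The mainland difference was not even across the cacti. On agria it had a median over the 32 transcripts of 0.39 (0.18 to 1.25), a ratio of 1.31, and on organ pipe cactus of 0.92 (0.43 to 2.38), a ratio of 1.89. It was larger on organ pipe cactus in 27 of 32 transcripts (84.4%), as in 42.7% of all transcripts. The highest value on agria, 1.25, was that of FBtr0172595 and rested on its 1 array at 11.22. Without that array its difference was 0.70 on agria against 1.14 on organ pipe cactus, the highest on agria was 1.08 (FBtr0164885), and the count was 28 of 32. The 5 exceptions with all arrays were FBtr0172595, FBtr0165024, FBtr0162057, FBtr0172468, and FBtr0164874. FBtr0172468 had the widest gap that way, with 0.79 ± 0.20 on agria and 0.43 ± 0.20 on organ pipe cactus, and it is among the dimmest of the 32, at the 5.57 percentile.

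By combination, the median difference on agria was 0.40 at 15°C, 0.61 at 25°C, and 0.29 at 35°C. On organ pipe cactus it was 0.90 at 15°C, 1.32 at 25°C, and 0.72 at 35°C. For 21 of the 32 transcripts the largest of the 6 differences was that on organ pipe cactus at 25°C, and for 20 the smallest was that on agria at 35°C. At organ pipe cactus and 25°C, 30 of 32 transcripts had the 4 PO arrays fully above the 4 OPNM arrays, against 8.57% of all transcripts. It was 27 of 32 at 15°C, against 5.14%, and 19 of 32 at 35°C, against 2.38%. On agria the counts were 3 of 32 at 15°C, against 0.351%, 9 of 32 at 25°C, against 1.73%, and 4 of 32 at 35°C, against 3.78%. In all 6 combinations at once it held for 2 transcripts, FBtr0165024 and FBtr0162057, against 0.0275%. The rule required PO to be higher in each combination. An excess of these counts over all transcripts is therefore built in by the choice, and they are descriptions.

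The mean of the 32 transcripts on each array, taken around each transcript's mean over all arrays, lay further apart between the populations on organ pipe cactus than on agria. The transcripts were chosen on these arrays for higher values in PO flies, so the separation of the populations is a description. PO arrays on organ pipe cactus had a median of 0.51 (−0.06 to 0.95) and OPNM arrays on it of −0.44 (−0.86 to −0.29), without overlap. On agria the medians were 0.31 (−0.30 to 0.64) in PO flies and −0.17 (−0.55 to 0.00) in OPNM flies, with overlap. The 4 OPNM arrays on organ pipe cactus at 25°C read −0.86, −0.84, −0.31, and −0.58, against 0.64, 0.29, 0.67, and 0.95 in PO flies. Their array medians were also low, 9.89, 9.87, 9.94, and 9.94, against 10.00, 9.98, 9.94, and 10.01 in PO flies. After centring, the difference was larger on organ pipe cactus in 27 transcripts as before. Over the other 5 combinations the difference had a median of 0.57, and 20 of the 32 still reached 0.5.

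**Figure D3:**
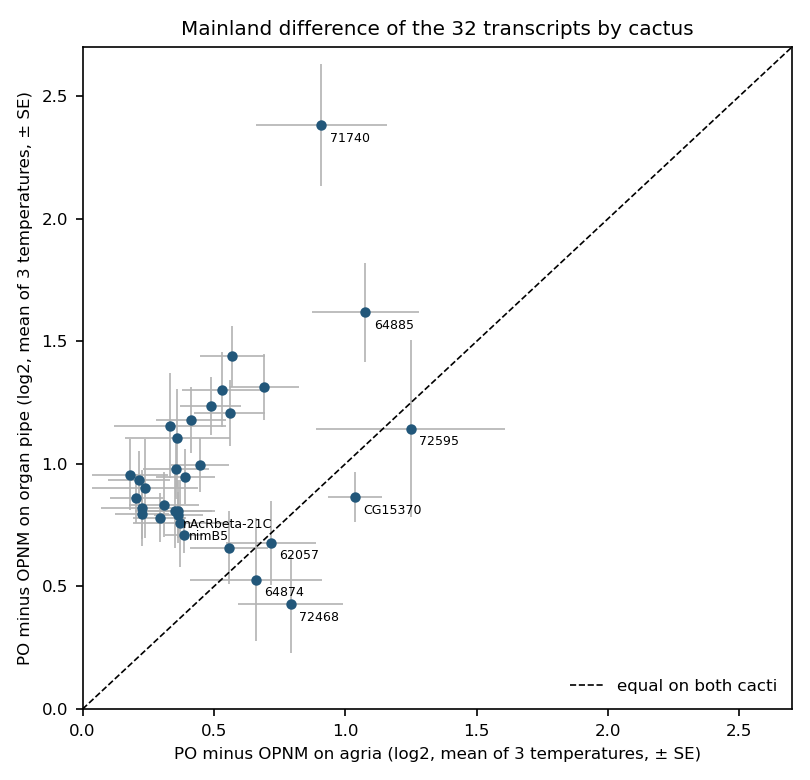
PO minus OPNM difference (log2, mean over 3 temperatures) of each of the 32 transcripts on agria (horizontal) and on organ pipe cactus (vertical), with standard errors as bars and a dashed line of equal values. The points above the line are the 27 transcripts with the larger difference on organ pipe cactus, and the labels give an ortholog symbol or the last digits of the transcript number.

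The difference was also read on arrays that had not chosen the transcripts. The rule was applied without 1 replicate number of every group, and the PO minus OPNM difference was then taken from that replicate alone. It chose 33, 22, 47, and 31 transcripts without replicates 1, 2, 3, and 4, of which 24, 18, 25, and 24 were among the 32. The held-out difference was positive in 33 of 33, 22 of 22, 44 of 47, and 31 of 31, whereas 40.6% to 47.8% of all transcripts were positive in the same arrays. Its median was 0.76, 0.71, 0.37, and 0.64, and it reached 0.5 in 30, 16, 18, and 23 transcripts, against 0.805% to 3.72% of all transcripts. Replicate 3 gave the smallest median. Replicate 2 could be read in 5 combinations. In the held-out arrays the median was 0.32, 0.64, 0.36, and 0.23 on agria and 1.29, 0.85, 0.62, and 1.09 on organ pipe cactus. The difference was larger on organ pipe cactus in 27 of 33, 16 of 22, 34 of 47, and 29 of 31 transcripts, against 40.6% to 50.8% of all transcripts.

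The contrast of the cacti did not enter the rule, but it shares arrays with the rule. Among them were the OPNM arrays on organ pipe cactus at 25°C, which were low in the mean of the 32 transcripts. Low values there raise agria minus organ pipe, and high values of PO flies on organ pipe cactus lower it. The counts over all populations are therefore not independent of the choice, in either direction. Over all populations and temperatures, 9 of the 32 transcripts were higher on agria than on organ pipe cactus at an adjusted p under 0.01 (limma), or 28.1%, as were 14.5% of all transcripts. None was higher on organ pipe cactus, as were 2.44% of all transcripts. At an unadjusted p under 0.05, 15 of 32 were higher on agria and 4 on organ pipe cactus, against 25.2% and 30% of all transcripts. The sign was toward agria in 24 of 32, against 42.7%. The median difference was 0.11, against −0.03 over all transcripts. The largest were 0.49 ± 0.11 in FBtr0162860 (FBgn0134892; adjusted p = 0.000867, higher on agria in 11 of 12 combinations of population and temperature), 0.47 ± 0.08 in FBtr0166403 (FBgn0138427; adjusted p = 6.18e-06, 12 of 12), and 0.42 ± 0.09 in *nimB5* (adjusted p = 0.000634, 11 of 12). The others were the chitinase FBtr0167983, FBtr0166787, FBtr0170776, FBtr0170573, FBtr0168122, and FBtr0171818, with 0.22 to 0.32. In FBtr0162860, 3 organ pipe arrays (9.60 and 9.19 in OPNM flies at 25°C and 9.68 in PP flies at 15°C) and 1 agria array (10.54 in OPNM flies at 15°C) read below 11. Its difference was 0.34 without these 3 and 0.38 without all 4, below that of *nimB5*. The same OPNM arrays at 25°C were low in FBtr0166403 (lowest 10.06, against a median of 12.12 over OPNM organ pipe arrays). Its difference without them was not calculated. Without the arrays of replicate 1, only 2 of the 9 passed.

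In Baja California flies alone, 7 of 32 transcripts (21.9%) were higher on agria and none on organ pipe cactus, against 8.2% and 1.52% of all transcripts. The largest were FBtr0169135 (0.61 ± 0.14, adjusted p = 0.00194 in limma), *nimB5* (0.50 ± 0.13, adjusted p = 0.00496), and the chitinase FBtr0167983 (0.44 ± 0.09, adjusted p = 0.000769). Without the arrays of replicate 1 or without those of replicate 3 none of them passed, and 4 passed with centred arrays. In a fit of the Baja California arrays alone, adjusted within the comparison and not over all comparisons, 12 did. That count is therefore not on the same footing as the 7. The sign was toward agria in 28 of 32, against 46.5% of all transcripts. In PP flies alone FBtr0167983 was higher on agria (0.55, adjusted p = 0.00308 in limma) and FBtr0162057 on organ pipe cactus (−0.66, adjusted p = 0.00644), against 4.84% and 0.447% of all transcripts. In SQ flies alone FBtr0171818 was higher on agria (0.39, adjusted p = 0.00341 in limma) and none on organ pipe cactus, against 0.317% and 0.0757%.

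In mainland flies 1 transcript of 32 (3.12%), FBtr0166403, was higher on agria (0.52, adjusted p = 0.000556 in limma), against 3.35% of all transcripts, and none on organ pipe cactus, against 0.165%. It did not pass without the arrays of replicate 1 or without those of replicate 3. The low OPNM arrays of FBtr0166403 on organ pipe cactus at 25°C enter its value of 0.52, which was not calculated without them. The mainland value averages populations that lay on opposite sides of 0. In PO flies 25 of 32 transcripts had higher means on organ pipe cactus (46.4% of all transcripts), with a median agria minus organ pipe difference of −0.16, and in OPNM flies 5 did (60.4%), with a median of 0.32. The medians were 0.26 in PP flies and 0.23 in SQ flies, with 7 transcripts (54.9% of all) and 4 transcripts (51.2% of all) higher on organ pipe cactus. FBtr0171740, for example, differed by −0.97 in PO flies, 0.50 in OPNM flies, 0.39 in PP flies, and 0.52 in SQ flies. The difference between PO and the others was not tested, since the sign of PO minus OPNM in each combination entered the rule.

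The interaction of region and cactus did not pass in limma in any of the 32, nor in any other transcript. At an unadjusted p under 0.05 it counted 12 of 32, against 6.25% of all transcripts. The interactions of cactus and temperature and of region and temperature likewise passed in none, and each counted 1 of 32 at an unadjusted p under 0.05, against 2.96% and 3.12% of all transcripts. Without moderation of the variances the counts of the 32 stayed at 0.

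Within Baja California, 3 of the 32 transcripts were lower in PP than in SQ flies (9.38%), against 0.502% of all transcripts, and none was higher (1.09% of all transcripts differed in either direction). They were FBtr0162549 (FBgn0134583), with −0.62 ± 0.14 (limma, adjusted p = 0.00141), *nimB5*, with −0.54 ± 0.13 (adjusted p = 0.002), and *nAcRbeta-21C*, with −0.45 ± 0.11 (adjusted p = 0.0029). All 3 were lower in PP in 6 of 6 combinations of cactus and temperature. FBtr0162549 had a median of 7.87 (6.63 to 9.19) in PP flies and of 8.73 (7.75 to 9.30) in SQ flies, *nimB5* of 7.04 (5.61 to 8.18) and 7.47 (6.48 to 8.47), and *nAcRbeta-21C* of 9.73 (9.29 to 10.38) and 10.18 (9.49 to 11.37), so that the values overlapped in each. Over the 32 transcripts the median of PP minus SQ was −0.14, with 25 of 32 negative, against 0.01 and 45.2% over all transcripts. At an unadjusted p under 0.05, 12 were lower and 2 higher in PP flies, against 6.61% and 13.2% of all transcripts. Without the arrays of replicate 1 none of the 3 passed, and 1 passed without those of replicate 4. None passed in a fit of the Baja California arrays alone, which was adjusted within the comparison.

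**Figure D4:**
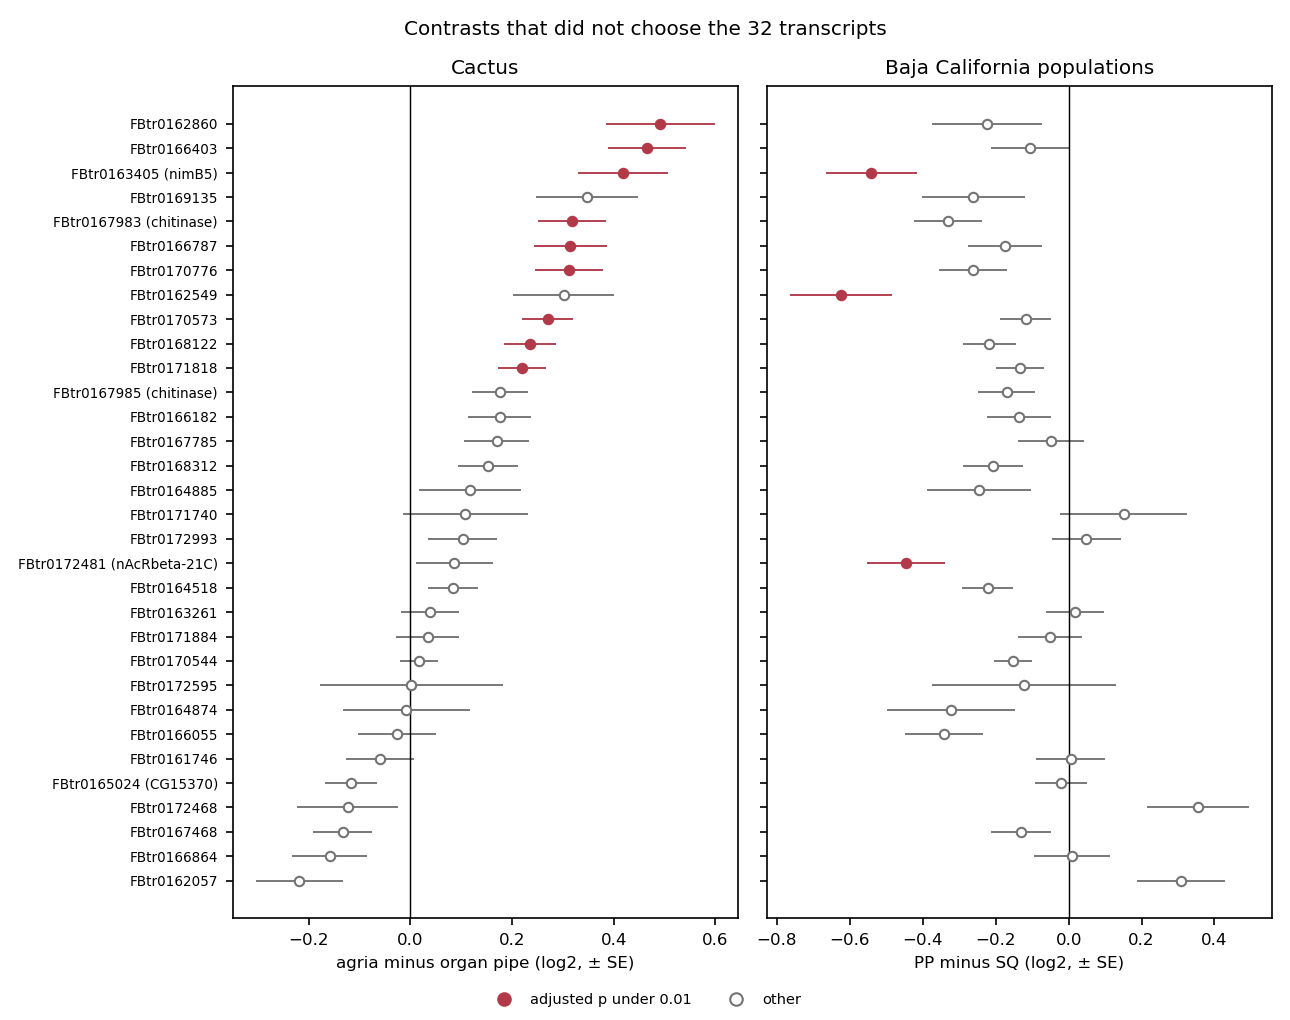
Agria minus organ pipe (left) and PP minus SQ (right) for each of the 32 transcripts, on the log2 scale with standard errors, ordered by the left value. Filled red points passed an adjusted p under 0.01 in limma: 9 to the right of 0 on the left and 3 to the left of 0 on the right.

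The Baja California flies were set between the mainland populations as a share of the PO minus OPNM difference, where 0% is the OPNM mean and 100% the PO mean. The rule bounds this share, so it is a description. In 13 of the 32 transcripts it was at most 33.3%, near OPNM, in 7 it was at least 66.7%, near PO, and in 12 it lay between. The PO mean was the highest of the 4 populations in 26 transcripts, the OPNM mean the lowest in 27, and both in 21.

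The 13 transcripts near OPNM held most of the largest differences: FBtr0171740 (19.5%), FBtr0164885 (24.7%), FBtr0172595 (26.3%), FBtr0166182 (31.1%), and FBtr0161746 (13.0%), along with the chitinase FBtr0167985 (29.9%) and *nAcRbeta-21C* (−5.26%). FBtr0172595 was in this class through its array at 11.22, without which its share was 34.2%. In FBtr0162549 (11.2%) the share averaged unlike populations, since the PP mean was 7.94 and the SQ mean 8.56, against 8.90 in PO flies and 8.16 in OPNM flies. The median difference of the 13 was 0.49 on agria and 1.14 on organ pipe cactus. For FBtr0163261 (FBgn0135293) the PO mean was 10.91 ± 0.34 and the OPNM, PP, and SQ means were 10.24 ± 0.29, 10.24 ± 0.25, and 10.23 ± 0.30 (SD).

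In the 7 transcripts near PO, OPNM was the low population: FBtr0172468 (126.3%), FBtr0162057 (123.6%), FBtr0165024 (104.1%), FBtr0162860 (103.6%), FBtr0166403 (101.8%), FBtr0170776 (76.5%), and FBtr0171884 (71.2%). In FBtr0162057 the PP mean was 9.36 ± 0.54, above the PO mean of 9.05 ± 0.30, while the OPNM mean was 8.35 ± 0.23, and 4 PO arrays exceeded 4 OPNM arrays in each of the 6 combinations. In FBtr0162860 the 4 OPNM arrays on organ pipe cactus at 25°C read 9.60, 9.19, 11.98, and 11.75, so that 2 arrays set much of its difference of 1.82 there. FBtr0166403 had the same 2 arrays low, with 10.57, 10.06, 12.13, and 12.47.

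**Figure D5:**
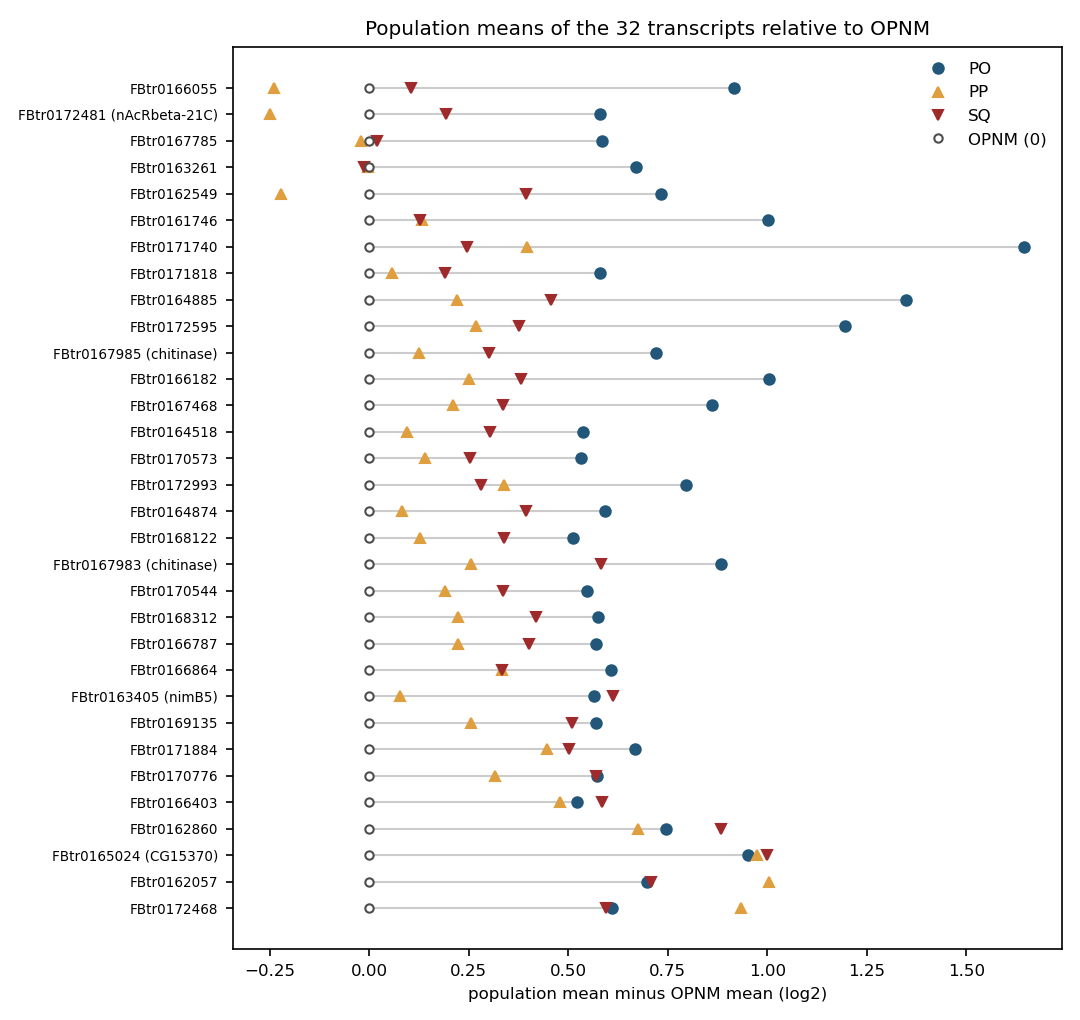
Mean of PO (blue circles), PP (orange triangles), and SQ (red triangles) minus the OPNM mean (open circles at 0) for each of the 32 transcripts, on the log2 scale, ordered by the share of the mainland difference at which Baja California lies. PP and SQ lie near OPNM at the top and near or beyond PO at the bottom.

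Over temperatures the mainland difference had a median of 0.69 at 15°C, 0.91 at 25°C, and 0.50 at 35°C. Its sign was fixed by the rule. It was at least 0.5 in every combination in 2 transcripts, and the smallest single value was 0.01, in FBtr0166787 on agria at 35°C.

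Many of the 32 transcripts, but not all, varied together from array to array within groups. After the group means were removed, pairs of them correlated at a mean r of 0.25 over the 97 arrays, against 0.01 over all pairs of transcripts, and 121 of 496 pairs had r above 0.5 and 95 had r below 0. The lowest was −0.61, between FBtr0162057 and *nimB5*. These are correlations of residuals that share the arrays and their normalization. The closest pairs were FBtr0162860 with FBtr0166403 (r = 0.86) and the 2 chitinase transcripts FBtr0167983 and FBtr0167985 (r = 0.86). The mean r was 0.35 among the 13 transcripts near OPNM and 0.07 among the 7 near PO. FBtr0165024 had a mean r with the others of −0.20, and FBtr0162057, FBtr0172468, FBtr0164874, and FBtr0166864 had means of −0.03 to 0.00.

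At the limits of the rule, FBtr0168122 was just inside with a mainland difference of 0.51 and FBtr0165695 just outside with 0.48. FBtr0166055 was the closest inside the limit on regions, with −0.53, and FBtr0164927 the closest outside, with 0.94. For the steps, FBtr0164518 (−0.18) and FBtr0166403 (−0.20) were inside and FBtr0172333 (0.20) and FBtr0161569 (−0.22) outside. Without the limits on regions and temperatures the rule held for 102 transcripts, and 217 failed only the limit of 0.5.

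Lists of genes with known roles were matched by ortholog symbol or annotation term. The annotations came from tables of transcripts that the study had found to respond in these samples, so that their counts are not independent evidence. Of 11 immune transcripts, 3 were higher in PO than in OPNM at an adjusted p under 0.01 in limma and none lower, with a median difference of 0.24. Of 100 serine peptidases and serpins, which act in digestion and immune cascades, 18 were higher and 1 lower (median 0.17). Of 10 transcripts of the extracellular matrix and cuticle, 3 were higher and none lower (0.16), and of 38 of detoxification 2 were higher and 3 lower (0.11). Among 15 chemosensory transcripts none was higher and 2 were lower (−0.08). Over all transcripts 2.6% were higher and 1.29% lower, with a median of −0.03. Of the 32, *nimB5* was in the immune list and none was in the other lists. No transcript matched the hemocyte or male lists. The heat shock list matched 1 transcript, the ortholog of *CG8531*, which did not pass. Heat shock genes as a group were therefore not examined. Of the markers of egg chambers, *Vm26Aa* and *Vm26Ab* were found, and neither passed. Their mean value was 9.76 to 13.54 on PO arrays and 9.73 to 13.75 on OPNM arrays. Of 4 muscle markers 1 was higher in PO, and their mean was 11.97 to 12.82 on PO arrays and 10.89 to 12.98 on OPNM arrays. The part of either in the 32 transcripts was not tested.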

How the data were processed

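RNA of females was copied into double-stranded cDNA, which was labeled with Cy3 and hybridized to NimbleGen arrays. The authors applied quantile normalization to the spot intensities (NimbleScan) and combined a transcript's probes with RMA. The deposited values are log2 values, 1 per transcript and array. Raw spot intensities, background, and slides were not used here. For each of 14528 transcripts, limma 3.58.1 in R 4.3.3 fitted the means of 24 groups to 97 arrays (73 residual degrees of freedom). Contrasts were of equally weighted group means. The Benjamini-Hochberg adjustment pooled the p-values of 483 pairwise comparisons for every transcript, with a threshold of 0.01. The fit of Baja California arrays alone was adjusted within each comparison. Interactions were tested by moderated F tests, adjusted within each term. No filter on low values was applied, so all 32 transcripts were tested. The number of arrays limits the precision. Tested on simulated data of 14528 transcripts, the fit recovered 91 of 94 cactus changes of 0.5 and 106 of 106 changes of 1, with 2 false calls. The simulated noise was independent between transcripts and arrays and had no outlying arrays, so these rates need not hold for the real arrays. The transcripts and gene lists were chosen with earlier results of these data known. Named transcripts were the 10 with the largest differences, those with an annotation, those at the limits of the rule, the 3 with the largest effect past the threshold of each test, and those in the gene lists. Others were named after their values were seen. Identifiers were taken from the study's supplementary tables, which paired 4161 transcripts with a gene and 555 with an ortholog symbol. The gene table used here could not be joined to the transcripts, so that gene order, position, and sequences were not used. The alternatives tried were another normalization, centring, a filter on the dimmest 25%, leaving out replicates, a replicate block, ordinary contrasts, and adjustment within each comparison.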

Additional observations from a re-analysis of the deposited data

Results flagged for a closer look

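In 1 of 24 groups, OPNM flies reared on agria at 15°C, 1 array stood apart in the mean of the 32 transcripts. Replicate 2 read −0.55, against −0.17 on each of the other 3 arrays, and its array median was 9.94. Of 22 groups checked in single transcripts, 1 had such an array, FBtr0165024 on replicate 3 of OPNM flies on organ pipe cactus at 25°C, with 9.65 against 9.85 to 9.88. FBtr0172595 in PO flies on agria at 15°C was also checked, and its array at 11.22 was not marked. The check can therefore miss an array that carries much of a difference. Chance alone marks about 1 in 20 groups in this way.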

How the results depend on the processing

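The PO minus OPNM differences of the 32 transcripts kept their sign in 281 of 281 values over the alternatives, with a range of 0.45 to 1.74. Each moved by less than the residual SD of single arrays (median 0.33), a wide limit beside the standard errors of the differences (median 0.10). Ordinary contrasts and the filter on the dimmest 25% leave these differences unchanged, so that part of the count was fixed in advance. The other alternatives reused all or most of the arrays on which the rule had required PO to be higher. The kept signs are therefore a description and no separate evidence of the difference. The rule chose 20 transcripts when a ratio of 1.5 was required, 19 without the organ pipe 25°C arrays (14 of the 32), and 102 without the limits on regions and temperatures, the last 2 being alternatives added after the data were seen. It chose 22 to 47 without 1 replicate, and 24 of the 24 that remained with the dimmest 25% left out. The sign-turned rule chose 4 to 9. The count near OPNM was 10 to 16 and near PO 5 to 8.

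Of the 9 transcripts higher on agria, 2 to 8 passed without 1 replicate, and 78 of 88 of their values over the alternatives stayed past the threshold. In Baja California flies the count of 7 became 14 with adjustment within the comparison. In the fit of Baja California arrays alone, also adjusted within the comparison, it was 12. It was 4 with the dimmest 25% left out, 4 with centred arrays, and 0 to 6 without 1 replicate. Organ pipe cactus was higher in 0 to 1. In mainland flies 0 to 1 were higher on agria without 1 replicate, and 1 was higher on organ pipe cactus with centred arrays, 1 after quantile normalization again, and 0 to 1 without 1 replicate. The 3 transcripts lower in PP than in SQ became 1 with the dimmest 25% left out and 0 to 3 without 1 replicate. In the fit of Baja California arrays alone, adjusted within the comparison, they became 0. The held-out median was 0.37 to 0.76, and 0.62 to 1.29 on organ pipe cactus. With the dimmest 25% left out, fewer of the 32 were tested. The cause of the other changes was not tested.

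The replicate numbers did not pair the arrays. Only 25 of 97 arrays correlated best with their own number, and 16 of 23 same-numbered pairs of PO and OPNM arrays had r at or below 0.1 (−0.63 to 0.45). With the replicate block the counts were 32 chosen, 9 higher on agria, 7 in Baja California, 1 on the mainland, and 3 lower in PP, as without it. The interactions stayed at 0 in the alternatives run for them.

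Each stock stood for 1 population, probe sequences were not used here, and most of the transcripts had no annotation. FBtr0172595 lay at the floor of the signal, and FBtr0164874, FBtr0172468, and *nimB5* were dim, at the 5.4, 5.57, and 6.76 percentiles. Signal over background could not be examined.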
